A study of Mus musculus with 33 samples.

Results

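The Frizzled receptors Fzd1, Fzd2, Fzd3, Fzd4, Fzd5, Fzd7, Fzd8 and Fzd9 were taken by gene symbol from count tables of cultured mouse hippocampal neural stem cells. All 8 had a row in each of 3 tables, among 26621 symbols. The study held 33 libraries from cells taken at postnatal day 0.5 and grown attached in a medium with bFGF and EGF, the growth factors that keep such cells dividing. In the RNA-seq experiment, cells of the Ythdf2 genotypes Nestin-WT and Nestin-cKO were harvested after 0, 2 or 4 h with 5 µM actinomycin D, a blocker of transcription, with 3 libraries for each genotype and hour. In 2 further experiments, untreated Nestin-WT cells gave 3 input and 3 m6A antibody pull-down libraries, and 3 input, 3 YTHDF2 antibody and 3 IgG control libraries. cKO stands for a conditional knockout, in which the gene is removed only in cells that express a recombinase; the genotype label names Nestin, a gene of neural stem and progenitor cells. The labels number the libraries 1 to 3 without saying whether they came from separate animals or cultures, so each p-value measures the spread between these libraries, which may be technical.

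Frizzleds are cell-surface receptors for secreted Wnt proteins. With the co-receptors Lrp5 and Lrp6 they stop the breakdown of beta-catenin, which then acts on genes with TCF/LEF factors, and with other partners they steer planar cell polarity and axon growth. In the hippocampus, Wnt signals from neighbouring cells are known to act on the growth and differentiation of neural stem cells. m6A is a methyl mark on adenosines within mRNA, and YTHDF2 is a reader protein that binds marked mRNA and brings it to decay enzymes.

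Library totals ran from 10257329 to 21353383 counts in RNA-seq, from 12892222 to 28334300 in the m6A experiment and from 8419106 to 23097887 in the YTHDF2 experiment. Expression is given below as CPM, counts scaled to a common library total after TMM scaling between libraries, and levels are set against each other between genes only as the deposited TPM, which allow for gene length. The neural stem cell markers, among them Nes, Sox2 and Fabp7, summed to 14200 to 16500 CPM in WT at 0 h and to 9100 to 12200 CPM in the libraries labelled cKO. At an adjusted p under 0.05 by edgeR, 1 of these 10 markers was higher and 3 were lower at 0 h. Their median log2 difference was −0.099, and 7.71% of all genes tested were higher and 9.89% lower. Ythdf2 itself, which was counted per gene and so does not show whether deleted exons were missing, went against the genotype label. It was at 219, 253 and 258 CPM in WT at 0 h and at 3120, 1040 and 736 CPM in the libraries labelled cKO, and it was also higher there at 2 h (1200 against 74.6 CPM on average) and at 4 h (1400 against 70.6 CPM). Its log2 differences were 2.74, 4.00 and 4.31, with adjusted p of 0.00027, 9.18e-06 and 5.6e-06 by edgeR. Directions between genotypes below are those between the libraries as labelled.

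Fzd3, a receptor known for planar polarity and axon guidance, and Fzd1, a receptor of the beta-catenin route, made up most of the Frizzled mRNA. In WT at 0 h, Fzd3 stood at 39.5 ± 2.14 TPM (SD, n = 3) and Fzd1 at 17.9 ± 3.65 TPM, and no library of one overlapped the other. Then came Fzd9 at 1.26 TPM, Fzd7 at 1.20 TPM, Fzd4 at 1.13 TPM and Fzd5 at 0.806 TPM, where each overlapped its neighbour in this order. Fzd8 at 0.315 TPM and Fzd2 at 0.290 TPM lay below all Fzd5 libraries and overlapped each other. In the libraries labelled cKO at 0 h, the top 2 stood in the other order, with Fzd1 at 40.6 ± 6.93 TPM and Fzd3 at 23.8 ± 6.58 TPM. They did not overlap there either, and Fzd9 at 4.73 TPM, Fzd5 at 2.93 TPM and Fzd7 at 2.47 TPM followed.

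As a share of the summed TPM of the 8 genes, Fzd3 held 63.4% in WT at 0 h, 85.6% at 2 h and 92.5% at 4 h of actinomycin D, while Fzd1 held 28.5%, 9.07% and 3.74%. In the libraries labelled cKO, Fzd1 held 52.4%, 33.8% and 22.9% at these hours and Fzd3 held 30.5%, 48.8% and 59.6%. The share of Fzd9 there was 6.01%, 11.2% and 11.6%, against 2.05%, 1.78% and 1.16% in WT. Summed over the 8 genes, the mean was 62.4, 42.3 and 38.2 TPM in WT and 77.7, 48.7 and 34.9 TPM in the libraries labelled cKO.

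**Figure D1:**
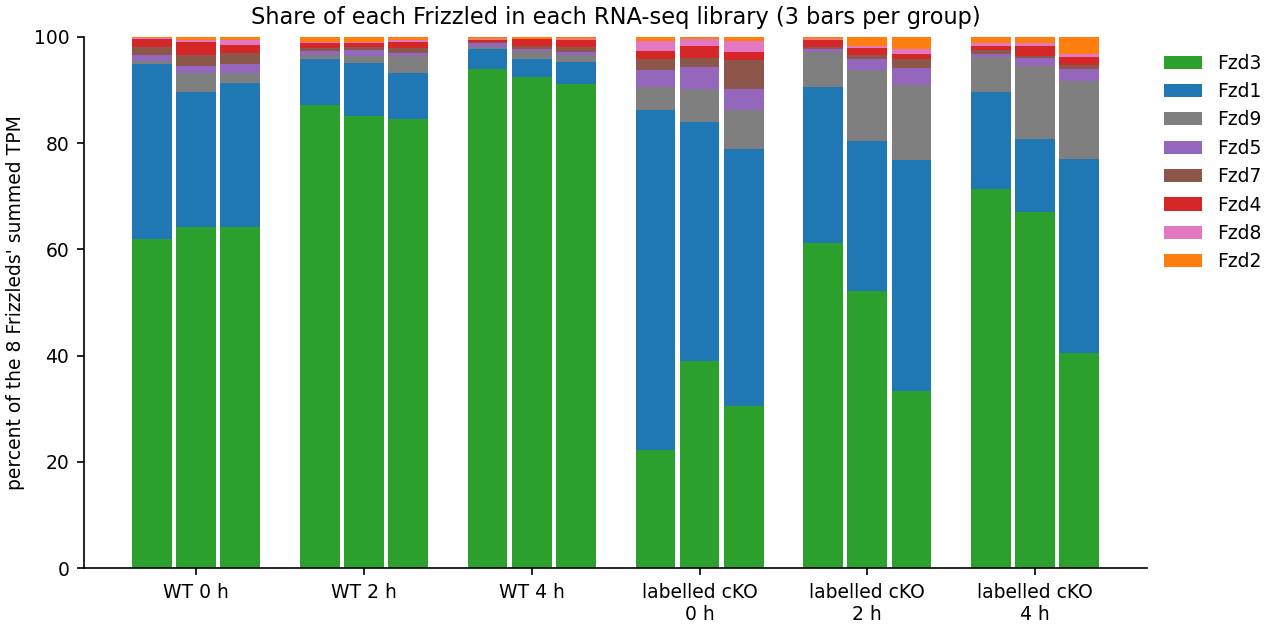
Each stacked bar is 1 RNA-seq library and gives each Frizzled gene's share (percent) of the summed TPM of the 8 genes, with 3 bars for each genotype as labelled and hour of actinomycin D. Fzd3 fills 61.9% to 64.2% of the WT bars at 0 h and 91.2% to 93.9% at 4 h, while Fzd1 fills 45.0% to 64.0% of the bars labelled cKO at 0 h and 13.8% to 36.5% at 4 h.

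Promoter sequences of 250 bases upstream of the start were matched by symbol in RefSeq (GRCm38.p6) for 5 of the 8 genes, Fzd1, Fzd4, Fzd5, Fzd7 and Fzd9, and not for Fzd2, Fzd3 and Fzd8. The 3 printed here belong to the genes with a promoter entry that were higher together in the libraries labelled cKO at 0 h. Each is on the minus strand of the chromosome and is written 5′ to 3′ toward the gene, at chr5:4758217-4758466 for Fzd1, chr1:64737751-64738000 for Fzd5 and chr5:135251048-135251297 for Fzd9. Capitals mark matches, on either strand, to 3 short motifs. The GC box, the usual site of Sp factors, was searched as GGGCGG. The TATA box, where the basal transcription machinery can bind, was searched as TATAAA. The core of the site of TCF/LEF factors, through which beta-catenin acts on genes, was searched as CTTTGA and also, since that core is known in more than one form, as CTTTGT.
Fzd1: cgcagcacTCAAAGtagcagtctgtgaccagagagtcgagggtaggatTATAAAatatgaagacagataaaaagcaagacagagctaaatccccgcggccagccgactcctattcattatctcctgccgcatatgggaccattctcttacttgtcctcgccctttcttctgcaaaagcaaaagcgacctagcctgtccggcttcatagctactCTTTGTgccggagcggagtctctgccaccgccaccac
Fzd5: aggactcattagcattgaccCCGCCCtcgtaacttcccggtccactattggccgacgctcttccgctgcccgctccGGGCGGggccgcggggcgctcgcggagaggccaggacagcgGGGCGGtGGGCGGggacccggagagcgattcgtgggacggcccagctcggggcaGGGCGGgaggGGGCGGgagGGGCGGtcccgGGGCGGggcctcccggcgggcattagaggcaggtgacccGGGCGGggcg
Fzd9: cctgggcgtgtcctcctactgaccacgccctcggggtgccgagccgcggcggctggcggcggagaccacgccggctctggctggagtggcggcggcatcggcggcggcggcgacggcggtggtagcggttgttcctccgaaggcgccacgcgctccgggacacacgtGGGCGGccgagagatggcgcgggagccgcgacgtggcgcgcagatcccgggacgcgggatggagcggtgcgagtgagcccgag

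These 3 windows differed in their matches. The Fzd1 window had 51.2% GC, no GC box, 1 TATAAA match far upstream of the start and 2 TCF/LEF cores. The Fzd5 window had 76.4% GC and 9 GC boxes, and the Fzd9 window had the same GC content and 1 GC box, and neither held a TATA box or a TCF/LEF core. Of the other windows, Fzd4 had 72.8% GC and 7 GC boxes, and Fzd7 had 65.2% GC, 6 GC boxes and 1 TCF/LEF core. Over all 32851 promoters of this length the median GC content was 52.4%, and 32.7% held a GC box, 12.4% a TATA box and 27.6% a TCF/LEF core. A match of letters is a description and not a measured binding site.

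Before transcription was blocked, 4 Frizzleds were higher and 1 was lower in the libraries labelled cKO than in WT. Fzd1, Fzd5, Fzd8 and Fzd9 were 2.40 to 4.41 times as abundant, and Fzd3 was lower by a factor of 1.58. Among all 14029 genes tested with edgeR at an adjusted p under 0.05, 7.71% were higher and 9.89% lower. The median log2 difference of the 8 genes was 1.2, against −0.0053 over all genes tested. Fzd8 reached the filter on low counts in all 3 libraries labelled cKO at 0 h but in 1 WT library at 0 h, so its call and this median lean on the group where it was high.

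Fzd1 was at 46.6, 34.0 and 35.0 CPM in WT and at 112, 78.1 and 88.3 CPM in the libraries labelled cKO. Its log2 difference was 1.27 (SE 0.314, adjusted p = 0.0141, edgeR). Every library labelled cKO lay above every WT library. Fzd5, a receptor needed in early eye and forebrain development, was at 2.29, 2.44 and 3.56 CPM against 8.61, 11 and 11.8 CPM. The groups again did not overlap, with a log2 difference of 1.92 (SE 0.546, adjusted p = 0.0258).

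Fzd8, the closest relative of Fzd5, was at 0.270, 0.421 and 0.889 CPM in WT, from 4, 5 and 15 counts, and at 2.48, 1.80 and 2.87 CPM, from 30, 24 and 36 counts, in the libraries labelled cKO. The log2 difference was 2.14 (SE 0.603, adjusted p = 0.0247). Fzd9, known in neural progenitors of the hippocampus, was at 0.405, 2.36 and 1.19 CPM against 3.64, 5.33 and 6.45 CPM, a log2 difference of 1.99 (SE 0.597, adjusted p = 0.0316). Both genes had no overlap between genotypes, and the WT libraries of Fzd9 varied more widely among themselves than those of Fzd1.

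Fzd3 was at 255, 250 and 242 CPM in WT and at 113, 197 and 162 CPM in the libraries labelled cKO. All 3 of the latter were below every WT library, and they were spread more widely. The log2 difference was −0.66 (SE 0.209, adjusted p = 0.0381), and the call was lost when only library size was used for scaling (adjusted p = 0.055). It was also lost by edgeR with no filter on low counts (adjusted p = 0.0602) and with the 6 compared libraries alone (adjusted p = 0.0865).

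The other 3 Frizzleds did not pass the test at 0 h. Fzd7, a receptor active in several stem cell types, was at 2.29, 3.20 and 3.08 CPM in WT and at 3.97, 3.30 and 10.8 CPM in the libraries labelled cKO. These groups did not overlap, but the library labelled cKO replicate 3 stood well above the other 2, and the log2 difference of 1.07 had an adjusted p of 0.22. Fzd2, a receptor for Wnt5a among others, was at 0.270, 0.590 and 0.711 against 1.08, 0.676 and 1.27 CPM (log2 0.93, adjusted p = 0.315). Fzd4, the receptor for the non-Wnt ligand Norrin, was at 1.82, 2.78 and 1.54 against 2.40, 3.15 and 2.31 CPM (log2 0.36, adjusted p = 0.579). Both of these overlapped between genotypes.

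The number of Frizzleds called at 0 h rested on single libraries. It was 5 with all libraries and 3 without the library labelled cKO replicate 2 at 0 h. It was 1 without replicate 3 of that group, or without any 1 of the WT libraries at 0 h. Without all 3 hours of WT replicate 1, 2 or 3 it was 0 each time, and without those of replicate 2 labelled cKO it was 2. Over the 12 analyses that left out libraries, Fzd1 kept its call in 7 (adjusted p from 0.00067 to 0.0967), Fzd8 in 5, and Fzd3, Fzd5 and Fzd9 in 3 each.

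**Figure D2:**
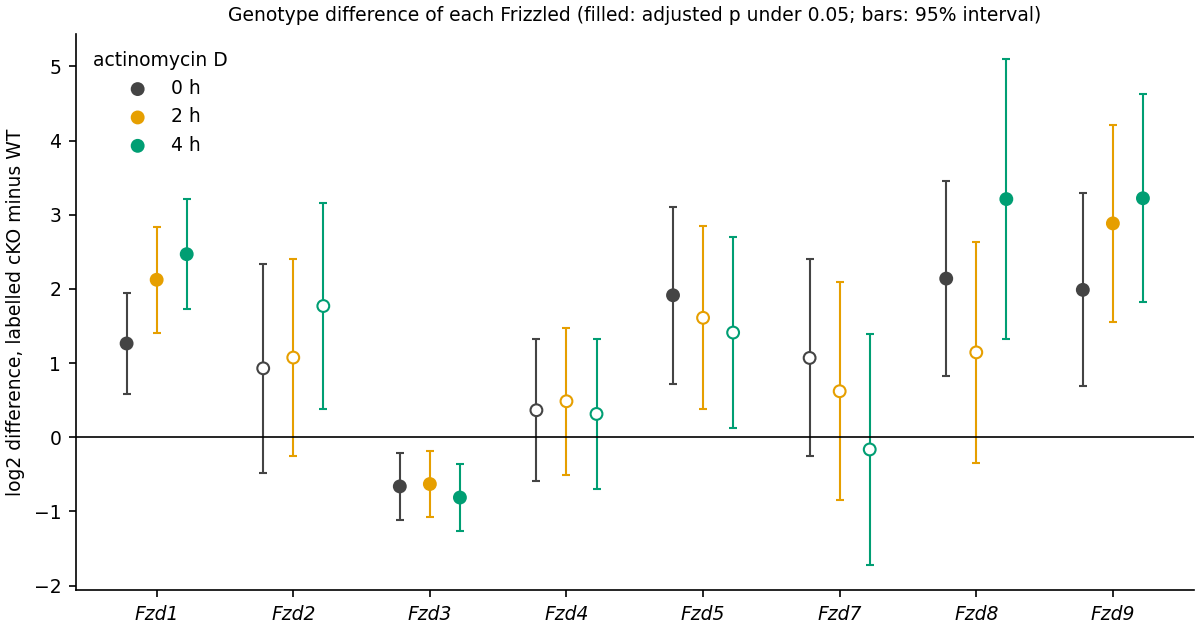
Points give the edgeR log2 difference between libraries labelled cKO and WT for each Frizzled gene at 0, 2 and 4 h of actinomycin D, with bars for the 95% interval and filled points for an adjusted p under 0.05. Fzd1 and Fzd9 lie above 0 at all 3 hours, with values from 1.27 to 3.22, and Fzd3 lies below 0 at all 3 hours, between −0.81 and −0.63.

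After transcription was blocked, Fzd1 and Fzd9 were higher and Fzd3 was lower in the libraries labelled cKO at both hours. At 2 h, 2 of the 8 were higher and 1 was lower, with 8.52% of all genes tested higher and 8.54% lower. At 4 h, 3 were higher and 1 was lower, with 11% and 9.11% of all genes tested. The calls for Fzd1 and Fzd9 at 2 h and at 4 h held in all 12 analyses that left out libraries. The call for Fzd3 held in 2 of the 12 at 2 h and in 8 at 4 h, and that for Fzd8 at 4 h in 5.

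Fzd1 at 2 h was at 9.56, 11.2 and 9.06 CPM in WT and at 32.7, 37.1 and 60.3 CPM in the libraries labelled cKO (log2 2.12, SE 0.327, adjusted p = 0.000701, edgeR). At 4 h it was at 4.58, 4.01 and 4.59 CPM against 17.5, 14.8 and 40.9 CPM (log2 2.47, SE 0.340, adjusted p = 0.00024). The groups were far apart at both hours, and replicate 3 stood above the other 2 libraries labelled cKO at each.

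Fzd9 was at 0.408, 0.696 and 1.68 CPM in WT at 2 h and at 3.49, 8.32 and 9.31 CPM in the libraries labelled cKO (log2 2.88, SE 0.608, adjusted p = 0.00548). At 4 h it was at 0.314, 0.859 and 0.776 CPM against 3.03, 7.10 and 7.87 CPM (log2 3.22, SE 0.644, adjusted p = 0.00322). Neither hour had any overlap, and replicate 1 was the lowest of its group in both genotypes at both hours.

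Fzd3 was at 278, 281 and 260 CPM in WT and 198, 197 and 134 CPM in the libraries labelled cKO at 2 h (log2 −0.63, adjusted p = 0.0465), and at 334, 314 and 300 CPM against 198, 210 and 132 CPM at 4 h (log2 −0.81, adjusted p = 0.0136). The libraries labelled cKO were lower without overlap at both hours, and the call at 2 h was lost with scaling by library size alone (adjusted p = 0.0922). It was also lost by edgeR with no filter on low counts (adjusted p = 0.0619) and with the 6 compared libraries alone (adjusted p = 0.0616). Fzd8 at 4 h had 1, 0 and 1 counts in WT and 8, 8 and 9 counts in the libraries labelled cKO (adjusted p = 0.017). The ratio of 25 to 2 counts, corrected for depth, was 10.5 with an exact 95% interval of 2.62 to 91.6, which covers counting error only. No library at 4 h was past the minimum of the filter on low counts for Fzd8. It was tested there only through the libraries labelled cKO at 0 h. The call of Fzd8 at 4 h was lost with limma on log2(TPM + 1) (log2 0.26, adjusted p = 0.213). It was also lost by edgeR with the 6 compared libraries alone (adjusted p = 0.055).

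Fzd5 did not pass edgeR's test with TMM scaling at these hours. It was at 1.28, 2.09 and 0.838 CPM in WT and at 1.20, 4.49 and 7.17 CPM in the libraries labelled cKO at 2 h (log2 1.61, adjusted p = 0.0582), and at 1.19, 0.764 and 0.905 against 0.859, 2.75 and 4.15 CPM at 4 h (log2 1.41, adjusted p = 0.0981). Replicate 1 labelled cKO lay inside the WT range at both hours, and replicates 2 and 3 lay above it. Fzd2 at 4 h was at 0.502, 0.477 and 0.453 CPM in WT and at 0.916, 1.02 and 3.0 CPM in the libraries labelled cKO, without overlap (log2 1.77, adjusted p = 0.058). DESeq2 called Fzd5 at 2 h (adjusted p = 0.0254) and Fzd2 at 4 h (adjusted p = 0.0417), and edgeR with scaling by library size alone called them too (adjusted p = 0.0417 and 0.0393). Fzd4 and Fzd7 were not called at 2 h or at 4 h, nor Fzd2 and Fzd8 at 2 h.

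**Figure D3:**
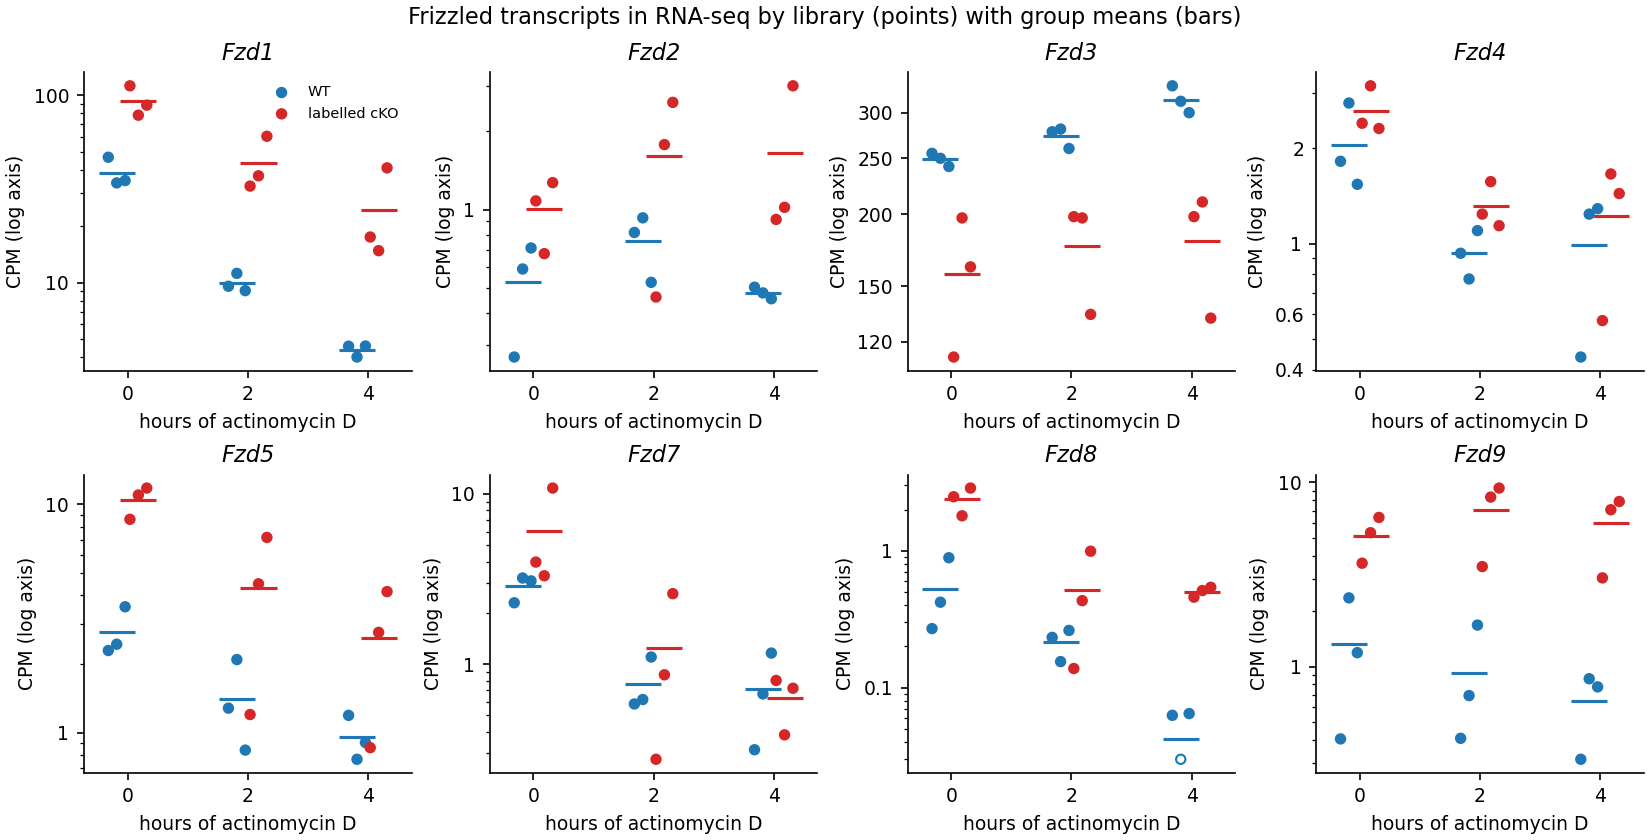
Each panel shows 1 Frizzled gene, with its CPM on a log axis against hours of actinomycin D, each point 1 library, each short bar a group mean, colours for the genotype as labelled, and an open point for a library with 0 counts, drawn at 0.03. Fzd1 falls in both genotypes, from 38.5 to 4.39 CPM in WT and from 92.7 to 24.4 CPM in the libraries labelled cKO, while Fzd3 stays between 113 and 334 CPM in every library.

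Markers of other cell types moved with genotype. At 0 h, 12 fibroblast and meningeal markers summed to 13.3 to 29.7 CPM in WT and to 31.2, 291 and 215 CPM in replicates 1, 2 and 3 labelled cKO, and 7 of the 11 tested were higher. The sums of oligodendrocyte lineage markers (289 to 453 against 64.4 to 86.0 CPM), astrocyte markers (980 to 1350 against 532 to 624 CPM) and neuron markers (194 to 248 against 53.5 to 73.6 CPM) were lower in the libraries labelled cKO. Of these lists 5 of 8, 3 of 7 and 4 of 7 genes were called lower and none higher. Endothelial markers summed to 1.72 to 4.21 against 1.08 to 3.43 CPM, with Cdh5 and Cldn5 at 0 in both genotypes. Microglial markers summed to 1.26 to 1.62 against 1.75 to 3.90 CPM, with Csf1r, Tmem119 and Itgam at 0 in both, and ependymal markers to 0.809 to 2.44 against 1.57 to 5.89 CPM. In bulk libraries such as these, fewer cells of a type and less RNA per cell cannot be told apart.

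Replicate 1 labelled cKO had a fibroblast and meningeal sum of 31.2 CPM at 0 h, the nearest to WT of its group. Its oligodendrocyte lineage, astrocyte and neuron sums were 86, 532 and 73.6 CPM. These were below those of every WT library at 0 h, as they were at 2 h and 4 h. In that library Fzd1 was at 112, Fzd5 at 8.61, Fzd8 at 2.48 and Fzd9 at 3.64 CPM, each above every WT library at 0 h. At 2 h and 4 h the fibroblast and meningeal sums were 26.7 and 35.9 CPM in replicate 1, against WT ranges of 12.8 to 25.2 and 16.3 to 38.4 CPM. There its Fzd1 (32.7 and 17.5 CPM) and Fzd9 (3.49 and 3.03 CPM) were again above every WT library, while its Fzd5 (1.20 and 0.859 CPM) was not. Its Fzd8 was below every WT library at 2 h (0.138 CPM, 3 counts) and above every WT library at 4 h (0.458 CPM, 8 counts). These are values of 1 replicate, and the part of the fibroblast and meningeal, oligodendrocyte lineage, astrocyte and neuron markers in the Frizzled differences was not tested.

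With transcription blocked, the relative level of an mRNA falls when it decays faster than the average of the others. The comparisons over time share the 0 h libraries within each genotype. In WT, Fzd1 fell by 2 h, and Fzd1, Fzd7 and Fzd8 fell by 4 h. The background was 13.7% of genes lower and 3.63% higher at 2 h, and 24.2% lower and 15.6% higher at 4 h. In the libraries labelled cKO, Fzd1, Fzd7 and Fzd8 fell by 2 h and Fzd5 joined them at 4 h, against 9.85% of genes lower and 2.21% higher at 2 h and 18% lower and 12.1% higher at 4 h. With TMM scaling over all 18 libraries, no Frizzled was called higher than at 0 h by edgeR in these 4 comparisons, and none was higher at an unadjusted p under 0.05. With the 6 compared libraries alone, Fzd3 was called higher in WT from 0 to 4 h (log2 0.33, adjusted p = 0.00619). The 3 calls from 0 to 2 h in the libraries labelled cKO were all lost without replicate 1 or without replicate 2 at 2 h, and with the 6 compared libraries alone. Over the 9 analyses that left out libraries, Fzd1 and Fzd7 kept that call in 4 each and Fzd8 in 5.

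Fzd1 was lost quickly. In WT replicates 1, 2 and 3, 20.5%, 33.0% and 25.9% of its 0 h level was left at 2 h and 9.84%, 11.8% and 13.1% at 4 h (log2 −3.13 at 4 h, adjusted p = 2.66e-06, edgeR). In the libraries labelled cKO, 29.3%, 47.6% and 68.3% was left at 2 h and 15.7%, 19.0% and 46.3% at 4 h (log2 −1.92, adjusted p = 0.000245). More was left at 4 h in every replicate labelled cKO than in any WT replicate. At 2 h the ranges overlapped, and replicate 3 labelled cKO kept the most at both hours.

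Fzd7 had 13.7%, 20.9% and 37.8% left at 4 h in WT and 20.2%, 11.6% and 6.70% in the libraries labelled cKO. Its log2 changes to 4 h were −1.98 (adjusted p = 0.0263) and −3.22 (adjusted p = 0.0018), and the percentages of the 2 genotypes overlapped. At 4 h they rest on 5 to 18 counts in WT and 6 to 14 in the libraries labelled cKO. The WT call to 4 h held in 2 of the 9 analyses that left out libraries, with adjusted p up to 0.172. Fzd8 in WT went from 24 counts at 0 h to 2 counts at 4 h, a ratio of 11.5 after correction for depth, with an exact 95% interval of 2.86 to 101 (counting error only). Its edgeR call there (adjusted p = 0.00593) was lost with limma on log2(TPM + 1) (log2 −0.36, adjusted p = 0.0529). In the libraries labelled cKO, 18.4%, 28.4% and 18.9% of Fzd8 was left at 4 h. Fzd8 passed the filter on low counts only through the libraries labelled cKO at 0 h, from which this fall is measured, so these values are a description: 3 libraries of that group were past the minimum, against 1 at 2 h and 0 at 4 h.

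Fzd5 had 9.97%, 24.9% and 35.2% left at 4 h in the libraries labelled cKO (log2 −2.02, adjusted p = 0.0101) and 52.0%, 31.3% and 25.5% in WT, where the log2 change of −1.52 missed the threshold (adjusted p = 0.0511). Fzd4 had 24.1%, 44.6% and 83.9% left in WT and 23.8%, 52.8% and 62.4% in the libraries labelled cKO, with adjusted p of 0.0804 and 0.0734. In WT these 2 genes scattered between replicates more than Fzd1 did, and at 4 h Fzd5 had 8 to 19 counts and Fzd4 7 to 20. With the replicate number as a block within genotype, Fzd4 and Fzd5 were called lower in WT at 4 h as well (log2 −1.08 and −1.51, adjusted p = 0.048 and 0.0122), Fzd7 in WT at 2 h (log2 −1.92, adjusted p = 0.00709), Fzd5 at 2 h (log2 −1.59, adjusted p = 0.0083) and Fzd4 at 4 h (log2 −1.14, adjusted p = 0.0364) in the libraries labelled cKO.

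With TMM scaling over all 18 libraries, Fzd3, Fzd9 and Fzd2 were not called over time in either genotype. Fzd3 at 4 h was at 131%, 126% and 124% of its 0 h level in WT and at 176%, 107% and 81.7% in the libraries labelled cKO. These percentages are relative to the other mRNAs: the log2 change of Fzd3 from 0 to 4 h was 0.35 in WT and 0.20 in the libraries labelled cKO with TMM scaling, and −0.40 and −0.56 when cytosolic ribosomal protein genes were the reference, which moved the median of all genes by −0.73 and −0.65. With that reference Fzd3 was called lower at 4 h in the libraries labelled cKO (adjusted p = 0.0361) and Fzd9 in WT (log2 −1.75, adjusted p = 0.0474). Fzd9 at 4 h was at 77.6%, 36.4% and 65.5% in WT and at 83.3%, 133% and 122% in the libraries labelled cKO, and the groups did not overlap. Fzd2 was at 186%, 80.9% and 63.6% against 85.1%, 152% and 236%, and these ranges overlapped. The WT percentages rest on few counts. Fzd2 had 4 to 12 counts at 0 h and 5 to 8 at 4 h there, and Fzd9 had 6 to 28 and 5 to 12.

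**Figure D4:**
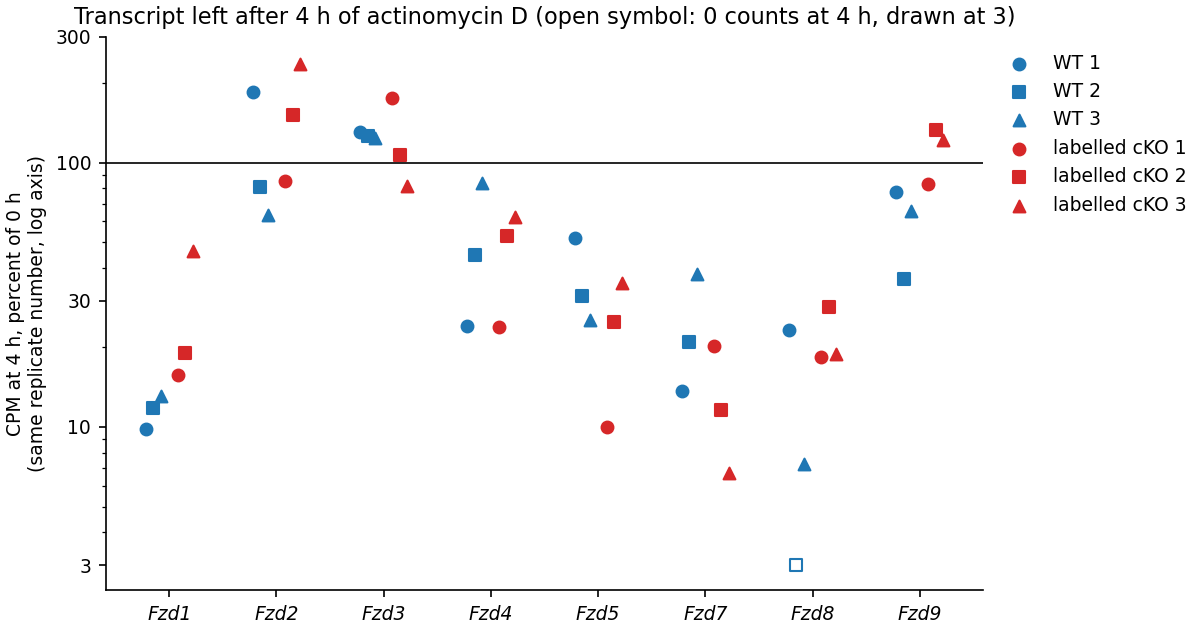
For each Frizzled gene, points give the percent of the 0 h CPM left after 4 h of actinomycin D in each replicate of each genotype as labelled, on a log axis, with an open symbol at 3 for the library with 0 counts at 4 h. Fzd1 lies at 9.84% to 13.1% in WT and 15.7% to 46.3% in the libraries labelled cKO, and Fzd3 lies at 81.7% or more in all 6.

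The difference in decay between genotypes was tested as a difference between slopes of log2 level per hour. None of the 8 passed by edgeR, DESeq2 or limma, 1 of them had an unadjusted p under 0.05 by edgeR, and 1 of all 14029 genes passed (0.00713%). Fzd1 had a slope that was less steep in the libraries labelled cKO by 0.31 log2 units per hour (SE 0.110), with an unadjusted p of 0.0117 and an adjusted p of 0.412. For the other 7 the unadjusted p was 0.161 or more.

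In the m6A experiment, which used WT cells only, 7 of the 8 Frizzleds passed the filter on low counts, and Fzd8, at 0.0833 to 0.347 CPM in all 6 libraries, did not. Of the 7, Fzd4 was higher in the pull-down than in the input, against 6.06% of the 14167 genes tested. Fzd4 was at 3.0, 6.34 and 4.23 CPM in the input and at 8.59, 10.1 and 8.11 CPM in the pull-down, a ratio of 2.86, 1.60 and 1.92 in the 3 replicates. The groups did not overlap, and the log2 difference of 0.95 (SE 0.252, adjusted p = 0.0267, edgeR) lay at percentile 99.4 of all genes tested. The call was lost without any 1 library except input replicate 2, with adjusted p from 0.00406 to 0.0972 over the 6 analyses.

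Fzd5 was at 8.16, 9.16 and 7.72 CPM in the input and 9.81, 12.6 and 11.2 CPM in the pull-down, without overlap (log2 0.43, adjusted p = 0.0823). Fzd3 was at 657, 670 and 707 against 761, 719 and 750 CPM, also without overlap (log2 0.13, adjusted p = 0.168). With the replicate number as a block, 3 Frizzleds were called, with Fzd3 and Fzd5 added. Fzd1 was at 20.6, 23.8 and 19.0 against 20.7, 19.5 and 16.7 CPM (log2 −0.16, adjusted p = 0.435), with the groups overlapping. Fzd2, Fzd7 and Fzd9 overlapped as well, with means of 1.77 and 1.78, 10.5 and 11.1, and 2.99 and 2.35 CPM in input and pull-down. A ratio over input is the antibody's yield of a whole mRNA and does not place a mark within it.

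In the YTHDF2 experiment, the sample titles and the sample descriptions exchange the names Input and YTHDF2. The descriptions match the names of the count columns and are used here; by the titles, each YTHDF2-over-input difference below has the opposite sign and 1 Frizzled, not 4, is called over IgG. In the libraries so named, Ythdf2 mRNA was at 212, 249 and 232 CPM in the YTHDF2 pull-down and at 92.3, 95.8 and 85.8 CPM in the input. The 3 groups serve in several comparisons, so those comparisons share libraries. Fzd8 passed the filter with 3 pull-down, 2 input and 1 IgG libraries past the minimum.

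Over input, 4 of the 8 Frizzleds were higher in the YTHDF2 pull-down, as were 30.7% of the 14255 genes tested, and over IgG 4 were higher, with 14.3% of all genes. The median log2 difference of the 8 was 0.63 over input and 1.3 over IgG, against 0.23 and −0.077 over all genes tested. Fzd1, Fzd4 and Fzd9 were called in both comparisons. Fzd7 was called over input and not over IgG, and Fzd5 was called over IgG and not over input.

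Fzd4 was at 4.39, 4.58 and 2.35 CPM in the input, 2.73, 4.18 and 2.87 CPM in IgG and 10.7, 10.4 and 8.69 CPM in the pull-down. All 3 pull-down libraries lay above the other 6. The log2 difference was 1.38 over input (SE 0.291, adjusted p = 0.00239, edgeR) and 1.59 over IgG (SE 0.296, adjusted p = 0.00254), and both calls held in all 6 analyses that left out a library.

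Fzd1 was at 20.5, 33.5 and 18.5 CPM in the input, 19.2, 28.7 and 16.4 CPM in IgG and 54.9, 73.2 and 36.4 CPM in the pull-down. The pull-down libraries were again the 3 highest, and replicate 2 was the highest in each group. The log2 difference was 1.18 over input (SE 0.304, adjusted p = 0.00769) and 1.35 over IgG (SE 0.306, adjusted p = 0.00934). The call over input held in all 6 analyses that left out a library and the call over IgG in 4.

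Fzd9 was at 3.60, 4.06 and 3.16 CPM in the input, 2.43, 2.90 and 2.10 CPM in IgG and 5.91, 7.23 and 4.71 CPM in the pull-down. Its log2 difference was 0.72 over input (adjusted p = 0.043) and 1.25 over IgG (adjusted p = 0.00746). Fzd7 was at 8.27, 9.73 and 9.03 CPM in the input, 6.80, 11.6 and 8.40 CPM in IgG and 11.1, 19.4 and 13.3 CPM in the pull-down. Its ratios over IgG were close together at 1.63, 1.67 and 1.59. The log2 difference was 0.70 over input (adjusted p = 0.0435) and 0.70 over IgG (adjusted p = 0.105), where it was called with the replicate number as a block (adjusted p = 0.00337). The calls of Fzd7 and Fzd9 over input each held in 1 of 6 analyses that left out a library.

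Fzd5 was at 5.09, 5.32 and 5.96 CPM in the input, 1.21, 2.71 and 1.99 CPM in IgG and 5.45, 6.06 and 4.86 CPM in the pull-down. The pull-down and the input overlapped, and the IgG libraries lay below both. The log2 difference over IgG was 1.46 (SE 0.306, adjusted p = 0.00566). IgG over input gave −1.46 (SE 0.308, adjusted p = 0.00342), the 1 Frizzled call in that comparison, with 17.0% of all genes lower, and lay at percentile 1.79 of all genes tested. The control antibody recovered 0.238, 0.509 and 0.334 times the input level of Fzd5 in the 3 replicates.

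Fzd3 was not called against either reference, at 671, 529 and 607 CPM in the input, 538, 547 and 455 CPM in IgG and 465, 633 and 573 CPM in the pull-down. As a share of the summed Frizzled TPM, Fzd3 held 80.1% of the input and 65.8% of the pull-down, Fzd1 held 9.50% and 18.6%, and Fzd4 held 1.74% and 4.11%. Fzd8 was at 1.33, 1.22 and 0.621 CPM in the pull-down and 0.425, 0.345 and 0.553 CPM in IgG, without overlap and not called (adjusted p = 0.152). Fzd2, at 0.916 to 2.84 CPM in the 9 libraries, overlapped in each comparison and was not called.

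**Figure D5:**
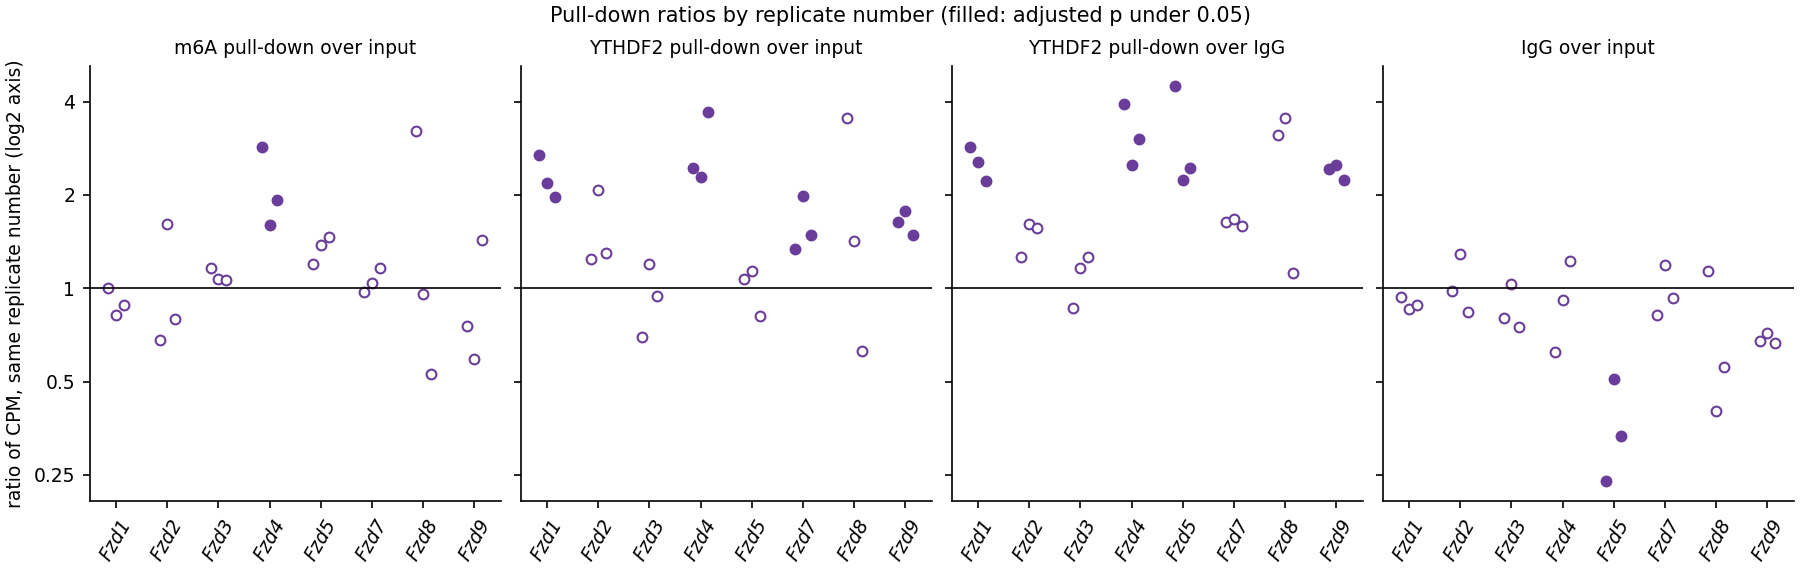
Points give, for each Frizzled gene and replicate, the ratio of CPM on a log2 axis for m6A pull-down over input, YTHDF2 pull-down over input, YTHDF2 pull-down over IgG and IgG over input, filled for an adjusted p under 0.05. Fzd4 lies above 1 in every replicate of the first 3, at 1.60 to 2.86, 2.28 to 3.70 and 2.5 to 3.92, and Fzd1 lies at 1.97 to 2.85 in the YTHDF2 ratios and at 0.818 to 1.00 in the m6A ratio.

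Set side by side by gene, Fzd4 was higher in all 3 pull-down comparisons (m6A over input, YTHDF2 over input and YTHDF2 over IgG) and was not called between genotypes. Fzd1 was higher in the YTHDF2 pull-down, fell under actinomycin D in both genotypes and was higher in the libraries labelled cKO, while its m6A ratios were 1.00, 0.818 and 0.882. Fzd3 was lower in the libraries labelled cKO, and with TMM scaling, no block and all libraries of an experiment it was called neither in the pull-downs nor over time. The m6A and YTHDF2 experiments used separate WT libraries, and no relation between these readouts was tested. As a share of the summed Frizzled TPM, Fzd1 held 7.47% and 9.50% of their inputs, against 28.5% in WT RNA-seq at 0 h. Fzd3 held 82.4% and 80.1%, against 63.4%. Differences between WT libraries of separate experiments were not tested.

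Other genes of the Wnt pathway were counted from 8 lists of 112 genes. Among the other receptors, at 0 h, Fzd10 was higher and Fzd6 was not called, with a log2 difference of 1.64 for Fzd10 (adjusted p = 0.0292, edgeR). Of 11 ligand and secretion genes tested, 2 were higher, Ndp, which encodes the Fzd4 ligand Norrin (log2 0.90, adjusted p = 0.00536), and Wnt7b (log2 0.86, adjusted p = 0.0369). None of 14 co-receptor and receptor turnover genes was called by edgeR, and 3 had an unadjusted p under 0.05. Of 8 secreted antagonists, Sfrp2, which binds Wnt proteins outside the cell, was lower (log2 −1.10, adjusted p = 0.0254). Of 23 cytoplasmic transducers, 1 was higher and 4 were lower, among them Apc, a scaffold of the beta-catenin destruction complex (log2 −0.79, adjusted p = 0.00411). The TCF factor gene Tcf7l2 (log2 1.01, adjusted p = 0.00341) and the corepressor gene Aes (log2 1.25, adjusted p = 0.0037) were higher among 12 nuclear factors. Of 5 Wnt target genes, Ccnd1, which encodes cyclin D1, was higher (log2 1.06, adjusted p = 0.0215). The others, Axin2 and Myc among them, were not called, and the median log2 difference of the 5 was −0.17. Of 10 planar cell polarity genes 1 was lower. Over the 12 analyses that left out libraries, the 0 h calls held in 5 for Fzd10, 11 for Ndp, 2 for Wnt7b, 4 for Sfrp2, 10 for Apc, 4 for Ccnd1, and all 12 for Tcf7l2 and Aes.

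Fzd10, Ccnd1 and Sfrp2 were called in the same direction at 2 h (log2 2.82, 1.25 and −2.05) and at 4 h (log2 2.09, 1.16 and −2.14). At 4 h these calls held in 5, 5 and 12 of the 12 analyses that left out libraries. Znrf3, a ubiquitin ligase that removes Frizzleds from the cell surface, was higher at 2 h (log2 1.24) and at 4 h (log2 1.19). Tspan12, a partner of Fzd4 in Norrin signalling, was lower at 4 h (log2 −1.25, adjusted p = 0.0476), a call that held in 2 of 12 such analyses. Over 0 to 4 h in WT, 24.2% of all genes tested fell and 15.6% rose. Of the Wnt lists, 7 of 14 co-receptor and receptor turnover genes, 8 of 23 transducers and 6 of 12 nuclear factors fell. In each of these lists 1 gene rose, and 3 of the 8 Frizzleds fell, among them Fzd8 from 24 to 2 counts. Of 11 ligand and secretion genes 4 fell and 2 rose, and of 10 planar cell polarity genes 3 fell and 1 rose. Of 5 Wnt target genes 2 fell, and of 8 secreted antagonists 0 fell and 1 rose. In the libraries labelled cKO, 18% of all genes tested fell. There 5 co-receptor and receptor turnover genes, 6 transducers and 5 nuclear factors fell. So did 4 planar cell polarity, 2 ligand and secretion and 2 Wnt target genes, and no secreted antagonist.

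In the pull-downs, Ndp was higher in m6A over input (log2 0.34, adjusted p = 0.0371), in YTHDF2 over input (log2 1.23) and in YTHDF2 over IgG (log2 1.78, adjusted p = 7.2e-05). Znrf3 was higher in the same 3 comparisons, by log2 0.33, 1.01 and 1.20. Wnt7b was higher in m6A over input (log2 0.77) and in YTHDF2 over IgG (log2 2.14). It was not called in YTHDF2 over input, and it was lower in IgG over input (log2 −1.51, adjusted p = 0.00392, edgeR). Fzd10 was higher in YTHDF2 over input (log2 1.16, adjusted p = 0.035) and over IgG (log2 2.39, adjusted p = 0.0028). Porcn, the enzyme that lipidates Wnt proteins for secretion, was lower in the m6A pull-down (log2 −0.74, adjusted p = 0.000683). Over the 6 analyses that left out a library, the m6A calls held in 2 for Ndp, 1 for Znrf3 and 1 for Wnt7b, and in all 6 for Porcn. The call of Fzd10 over input held in 3 of 6. Of all genes tested, 30.7% were higher in YTHDF2 over input and 14.3% over IgG. Ccnd1 (log2 −1.73) and Aes (log2 −1.41), higher in the libraries labelled cKO at 0 h, were lower over input. There 4 of 23 transducers and 2 of 16 co-receptor and receptor turnover genes were lower. So were 2 of 7 secreted antagonists, 1 of 12 nuclear factors and 1 of 5 Wnt target genes. In these lists 5, 6, 1, 4 and 1 were higher. No ligand or planar cell polarity gene was lower, and 2 and 5 were higher.

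Likeness of pattern was measured as Pearson's r of log2 CPM over the 18 RNA-seq libraries, among about 7080 genes above a mean log2 CPM of 3. These libraries share genotype and hour, so the values describe patterns and carry no test. The genes most like Fzd1 were Lmna (r = 0.968), Gas1 (0.965) and Nav2 (0.964), and those most like Fzd3 were Nsdhl (0.973), Elovl5 (0.968) and Etv1 (0.964). For Fzd5 they were Arl4c (0.945), Prrx1 (0.931) and Sgms2 (0.927), for Fzd8 Fam84a (0.913), Slc30a4 (0.910) and Tgif1 (0.909), and for Fzd9 Mmgt2 (0.935), Spp1 (0.929) and Maf (0.920). Fzd4 was most like Zfhx3 (0.874) and the receptor gene Lgr4 (0.847), and Fzd2 like Dhx40 (0.896). Among the Frizzleds themselves, Fzd5 and Fzd8 (0.89), Fzd1 and Fzd8 (0.87) and Fzd1 and Fzd5 (0.86) were most alike, and Fzd3 ran opposite to the other 7, with r from −0.81 to −0.41.

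By the RefSeq annotation of GRCm38.p6, the genes lie at chr5:4753839-4758216 (Fzd1), chr11:102604431-102608058 (Fzd2), chr14:65192441-65262463 (Fzd3), chr7:89404366-89410110 (Fzd4), chr1:64730558-64737750 (Fzd5), chr1:59482147-59486955 (Fzd7) and chr5:135248938-135251047 (Fzd9). Fzd5 and Fzd7 thus share chromosome 1, and Fzd1 and Fzd9 share chromosome 5. Fzd3 spans the longest stretch of these 7.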

How the data were processed

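The authors deposited raw counts per gene and TPM values for the RNA-seq, m6A and YTHDF2 libraries. Per the submitters' processing notes, bcl2fastq 2.17.1.14, Trimmomatic 0.32 and STAR 2.5.2a were used with the GRCm38 build; the counting program, its annotation and its use of strand are not given in these sources. Per the labels, RNA-seq libraries followed SMART-seq2 and the pull-down libraries a modified SMART-seq3 method.

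The deposited counts were tested with the quasi-likelihood test of edgeR 4.0.16 in R 4.3.3, with TMM scaling, the filterByExpr filter (minimum count 10), 1 group term for each experiment and Benjamini-Hochberg adjustment over all genes tested, with a threshold of 0.05. The decay test fitted a linear slope over 0, 2 and 4 h in each genotype. Each SE was worked back from the log2 difference and edgeR's F statistic, so it is no measure of precision separate from the p-value. The 95% intervals of the log2 differences between genotypes used this SE with 12 residual degrees of freedom. The scripts were tested on simulated data. The deposited TPM were used for levels between genes. Symbols were matched to RefSeq for 22003 of 26621 genes. The members and all gene lists were chosen with earlier results of these data known. From each Wnt list the genes with the smallest p-values among those called, up to 4, could be named, and 8 marker lists (62 genes) were summed.

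Libraries of one genotype with the same number deviated together across hours (median r = 0.31, lowest 0.13, 18 pairs), as did the YTHDF2 groups (median 0.49, lowest 0.35), so block fits are given beside the results they change; numbers did not pair genotypes (median 0.025).

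Alternatives were RLE factors, library size alone, ribosomal protein genes as reference, DESeq2 1.42.0, limma 3.58.1 on log2(TPM + 1), no filter, block terms, the 6 compared libraries alone, the names in the sample titles, and leaving out libraries. Leaving out all 3 hours of 1 replicate was added after seeing the data. The genes most like Fzd7 in pattern are not reported here.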

Additional observations from a re-analysis of the deposited data

How the results depend on the processing

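Counts of Frizzleds called are given with the main count in brackets. DESeq2 called 2 (1) in WT from 0 to 2 h and 2 (4) in YTHDF2 over input, RLE factors 2 in the latter, and no filter 2 in the former. Library size alone called 5 (3) in WT from 0 to 4 h and 3 (1) in m6A. limma on log2(TPM + 1) called 3 (1) in WT from 0 to 2 h, 5 (3) in cKO from 0 to 2 h and 4 (1) in m6A. The ribosomal protein gene reference called 3 (1) and 6 (3) in WT at 2 and 4 h and 5 (3) in cKO at 2 h. The 6 compared libraries alone gave 4 (1) and 5 (3) in WT, 0 (3) in cKO from 0 to 2 h and 2 (4) in YTHDF2 over input. With the names in the titles, YTHDF2 over IgG gave 1 (4), IgG over input 4 (1), and YTHDF2 over input turned to −1.18 for Fzd1, −1.38 for Fzd4, −0.70 for Fzd7, −0.72 for Fzd9, −1.16 for Fzd10, −1.23 for Ndp and −1.01 for Znrf3. The block on replicate within genotype gave 2 (1) and 5 (3) in WT at 2 and 4 h and 4 (3) in cKO at 2 h. In m6A, libraries with the same number also deviated together (median r = 0.34, lowest 0.071), against a median of −0.088 for other numbers. The replicate block there called 3 (1), adding Fzd3 (adjusted p = 0.0111) and Fzd5 (0.0217). Fzd3 changed sign over time, in log2, with library size alone (−0.016 in WT to 2 h, −0.060 in cKO to 4 h), limma (−0.12 and −0.16 in WT, −0.011 and −0.19 in cKO, at 2 and 4 h) and the ribosomal reference (−0.27 and −0.40 in WT, −0.26 and −0.56 in cKO). Fzd1 in m6A changed sign with library size alone (0.054) and limma (0.29). Leaving out libraries gave 0 to 4 (5) for genotype at 0 h, 2 to 5 (3) at 2 h, 2 to 6 (4) at 4 h, 1 to 1 and 1 to 3 in WT at 2 and 4 h, 0 to 4 and 2 to 4 in cKO, 0 to 1 in m6A, 2 to 3 over input, 3 to 4 over IgG and 1 for IgG over input; Fzd3 ranged from −0.12 to 0.36 in cKO at 2 h and from −0.068 to 0.40 at 4 h. The causes were not tested. Counts of 0 to 15 in Fzd8 in WT limit its values. Counts at 4 h in WT were also few in Fzd2 (5 to 8), Fzd9 (5 to 12), Fzd7 (5 to 18), Fzd4 (7 to 20) and Fzd5 (8 to 19).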
